A study of Mus musculus with 3 samples.

Results

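The 10 genes described here encode heat shock chaperones and were taken by symbol from the 32285 genes of the deposited matrices: Hspa8, Hspa1b, Hspa4, Hsph1, Dnaja1, Dnajb1, Hsp90aa1, Hsp90ab1, Hspd1 and Hspe1. Their working label was cytosolic heat shock chaperones, although the products of Hspd1 and Hspe1 are known to work in the mitochondrial matrix and are encoded in the nucleus. The genes were proposed with results of these data in view, so their levels and ratios are a description. The samples were single-cell RNA libraries of the mouse embryonic stem cell line E14 (129/Ola background), cultured with serum and leukemia inhibitory factor and frozen before capture. Treatment started 24 h after seeding. The 3 groups were cells given 250 µg/mL cycloheximide in 0.007% ethanol for 3 h, cells given the same for 6 h, and a control given ethanol alone for 6 h. Each group was 1 library from 1 line, with no replicate and no 3 h ethanol control, so time, culture and library preparation cannot be told apart and no difference below has a test between groups.

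Levels were taken from barcodes with at least 15000 unique molecular identifiers (UMIs) and 1 to 20% mitochondrially encoded UMIs, called cells below. Values set in a row of 3 are always in the order control, 3 h, 6 h. There were 2187, 1739 and 2554 such cells, with a median of 43160, 51726 and 46200 UMIs per cell. They held 111447486, 106842407 and 140321458 UMIs. UMIs were summed over the cells of a library and given as UMIs of a gene over all UMIs of the cells, in counts per 1e6 (CPM). Each UMI stands for 1 captured transcript end, so the values were not divided by transcript length. All intervals are 95% and cover counting error only, since amplification, culture and preparation add variation that 1 library cannot show. The median mitochondrial share was 4.58%, 3.52% and 2.89%, and libraries shared 1 to 3 cell barcodes pairwise. All 10 fixed markers of embryonic stem cells were above 38 CPM in every library, with Pou5f1 at 533, 579 and 465 CPM. Of the fixed markers of other cells, the summed level of 9 fibroblast genes was 2.94 to 3.54 CPM and that of 5 blood genes 0.741 to 1.33 CPM. The 9 extraembryonic endoderm genes summed to 22.6 to 30.2 CPM, and the 10 germ layer and trophoblast genes to 88.3, 61.02 and 40.3 CPM, of which Tubb3 made up 65.3, 35.1 and 18.6 CPM. The part of these genes in the results was not tested.

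Hsp70 chaperones bind exposed hydrophobic stretches of proteins and release them in a cycle driven by ATP. J proteins (Dnaja1, Dnajb1) deliver clients and stimulate ATP hydrolysis, and the Hsp110 relatives (Hspa4, Hsph1) exchange the bound nucleotide. Hsp90 (Hsp90aa1, Hsp90ab1) acts later on kinases, receptors and other clients handed over by Hsp70. Chaperonin 60 (Hspd1) and its lid, chaperonin 10 (Hspe1), enclose mitochondrial proteins in a cage. Many of these genes are targets of heat shock factor 1, which binds heat shock elements made of inverted nGAAn repeats, and Hsp70 and Hsp90 are known to hold that factor inactive.

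For 7 of the 10 genes, all but Hspa8, Hsp90aa1 and Hsp90ab1, promoter sequences were matched. These were 300 bases, 250 before and 50 after a RefSeq start on GRCm38.p6. They were searched on both strands for GAANNTTC or TTCNNGAA, an inverted pair of units that reads the same on either strand, and for a longer chain, in which GAANNTTC goes on with NNGAA or TTCNNGAA goes on with NNTTC. Every chain thus contains overlapping pairs. A pair was found in 15.1% of all 32851 windows and a chain in 0.603%. The 7 genes had 12 windows, of which 6 held a pair and 4 a chain, but several of these windows overlap and are not independent. By gene, 5 had a pair in some window and 3 a chain, the latter being Hspd1, Hspe1 and Hsph1. Other windows of Hspd1 and Dnaja1 held neither. The chain counted for Hspd1 and for Hspe1 is the same. The share by gene was not computed over all genes, so the counts by gene have no background of their own. Hspd1 and Hspe1 are divergent neighbours on chromosome 1, with RefSeq starts at 55087932 and 55088148 that leave 215 bases between them, and both share the same chain. The sequences below show these matches, with the paired units in capitals and each strand 5′ to 3′ in the direction of the named gene, except that the stretch common to Hspd1 and Hspe1 is in the direction of Hspe1. The Hspa1b stretch shows the single pair of the classical heat-inducible Hsp70 promoter. The Dnajb1 stretch, which held no exact pair, was chosen by its 6 h ratio, the second lowest of the 10 genes. A link between matches and ratios was not tested. The shared 30 bases, which lie before the Hspe1 start and within the 5′ end of an alternative Hspd1 transcript, are chr1:55088053-55088082 on the plus strand, those of Hsph1 chr5:149636279-149636308 on the minus strand, just after a RefSeq start at 149636315 (a separate pair upstream of that start is not shown), and those of Dnaja1 chr4:40722333-40722362 on the plus strand. The upstream 250 bases are chr17:34959239-34959488 on the minus strand for Hspa1b and chr8:83607925-83608174 on the plus strand for Dnajb1. An exact match is a description of letters and not a site of binding.
Hspe1 (shared with Hspd1): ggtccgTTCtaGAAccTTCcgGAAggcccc
Hsph1: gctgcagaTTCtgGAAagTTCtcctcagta
Dnaja1: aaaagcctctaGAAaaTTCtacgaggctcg
Hspa1b: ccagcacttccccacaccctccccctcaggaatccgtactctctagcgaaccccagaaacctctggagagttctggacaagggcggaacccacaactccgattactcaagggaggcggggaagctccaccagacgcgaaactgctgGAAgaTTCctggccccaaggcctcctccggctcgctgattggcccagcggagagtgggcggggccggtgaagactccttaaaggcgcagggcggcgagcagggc
Dnajb1: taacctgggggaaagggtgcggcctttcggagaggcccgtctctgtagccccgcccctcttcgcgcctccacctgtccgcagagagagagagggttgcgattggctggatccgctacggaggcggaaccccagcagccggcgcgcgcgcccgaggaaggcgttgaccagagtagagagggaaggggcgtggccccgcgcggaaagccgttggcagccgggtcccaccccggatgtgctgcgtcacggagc

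The first question was how far the chaperone transcripts differed from the control at each time. Together they made up 1.98% of the UMIs of control cells, 1.68% at 3 h and 1.41% at 6 h. Without Hspa8 the shares were 1.69%, 1.56% and 1.36%. At 3 h, 9 of the 10 genes lay below the control and 1, Hsp90aa1, lay above it. At 6 h all 10 lay below it by CPM. The median log2 ratio of the 10 genes was -0.35 at 3 h and -0.77 at 6 h, while over the 7608 genes averaging 10 CPM or more the medians were 0.11 and 0.17. Hspa1b was the member under that floor, and the medians of the other 9 genes were -0.32 and -0.76.

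Ratios of at least 2-fold below the control were found for 2 of the 10 genes at 3 h (Hspa8 and Hspa1b) and for 2 at 6 h (Hspa8 and Dnajb1). Among all genes above the floor, 0.513% were that low at 3 h and 2.41% at 6 h. Hspa1b is under the floor and rests on few UMIs, so on the same footing as all genes the counts were 1 of 9 at 3 h and 2 of 9 at 6 h. From 3 h to 6 h, 1 of the 10 (Hspa8) was lower by at least 2-fold, against 0.657% of all genes. None was higher by as much in any of the 3 comparisons, against 4.32%, 8.65% and 0.145% of all genes for 3 h, 6 h and 6 h over 3 h. Values below the control were common among all genes, with 35.9% for 3 h and 35.9% for 6 h, and 42.3% lay lower at 6 h than at 3 h. These shares depend on the scaling. With TMM factors, 4 of the 10 genes were at least 2-fold lower at 6 h and 3 at 3 h, while the share of all genes that low was 3.67% and 0.710%, and 48.9% of all genes lay below the control at 6 h. By mean UMIs per cell, 10.9% and 28.4% of all genes lay below it, and 6 and 10 of the chaperones. Of all genes past 2-fold at 6 h, 21.8% were lower by CPM and 37.2% with TMM factors. From 3 h to 6 h, 82.0% were lower by CPM and 95.1% by mean UMIs per cell.

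**Figure D1:**
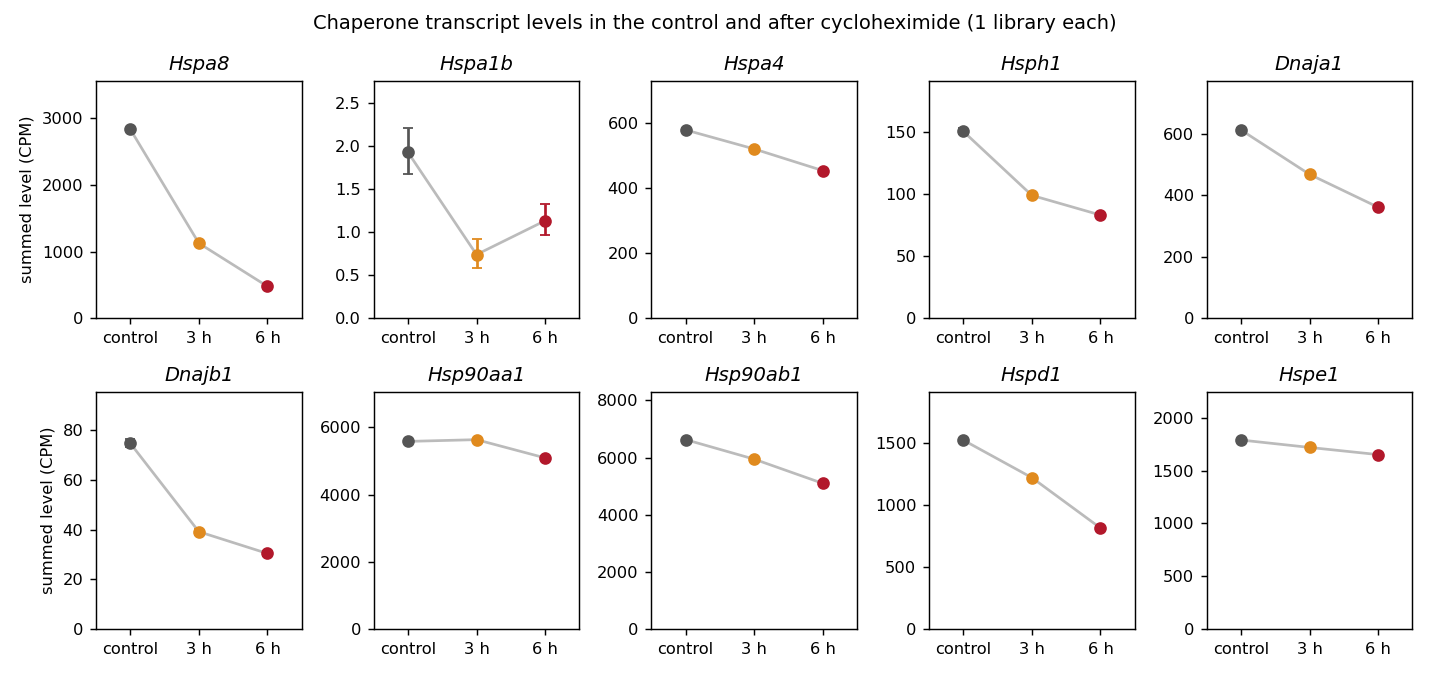
Summed level in CPM (y axis, from 0, a separate scale for each gene) of the 10 chaperone genes in the control, 3 h and 6 h libraries (x axis); points are single libraries and bars 95% Poisson intervals. Hspa8 steps down from 2835 to 1125 to 477 CPM, whereas at 6 h Hsp90aa1 and Hspe1 are at 91.2% and 92.3% of their control level.

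Hspa8 encodes the constitutive Hsp70 of the cytosol, which also strips clathrin from coated vesicles. The gene (ENSMUSG00000015656) lies on chromosome 9, 40800984 to 40810087, plus strand, in GENCODE M21 on GRCm38. In the order of the libraries its level was 2835 CPM (2825 to 2845), 1125 CPM (1118 to 1131) and 477 CPM (474 to 481). The 3 intervals were far apart. Against the control the 3 h library was at -1.33 (-1.34 to -1.32) and the 6 h library at -2.57 (-2.58 to -2.56) on the log2 scale, which left 39.7% and 16.8% of the control level. By CPM the step from 3 h to 6 h was -1.24 (-1.25 to -1.22), close to the 3 h ratio against the control. This closeness depends on the scaling. By mean UMIs per cell the 3 h ratio was -1.06 and the step from 3 h to 6 h was -1.399. With TMM factors they were -1.44 and -1.28, the 3 h ratio being the larger. Only 0.210% of all genes had a lower ratio at 3 h and 0.145% at 6 h. Of 60-base words in the last 500 bases of its longest coding transcript, 81.4% also occurred in transcripts of 9 other annotated genes, none of which is listed in the matrices. How such reads were counted is not stated, so the absolute level of Hspa8 is uncertain.

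Hspa1b (ENSMUSG00000090877, chromosome 17, 34956436 to 34959238, minus strand) encodes the heat-inducible Hsp70. It was close to absent in every library, with 215, 79 and 159 UMIs, which gave 1.93 CPM (1.68 to 2.20), 0.739 CPM (0.585 to 0.922) and 1.13 CPM (0.964 to 1.32). On the log2 scale the 3 h library was at -1.38 (-1.77 to -1.01) and the 6 h library at -0.77 (-1.07 to -0.47) against the control. Hspa1a, its near-identical neighbour at 34969190 to 34972156, had 167, 114 and 307 UMIs. None of the 60-base words of their last 500 bases was shared with another annotated gene, but their coding sequences are near copies, so the split between them is uncertain. The sum of both was 3.43, 1.81 and 3.32 CPM, with log2 ratios of -0.92 (-1.18 to -0.67) for 3 h and -0.05 (-0.24 to 0.15) for 6 h, so the 6 h sum was not separable from the control. Barcodes of 10 to 100 UMIs, which sample free RNA, held Hspa1b at 3.33, 1.51 and 0.255 CPM. Their totals were 3598476, 3304692 and 3920976 UMIs, so these values rest on very few Hspa1b UMIs and no change is read from them.

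Hspa4 and Hsph1 belong to the Hsp110 branch and recharge Hsp70 with ATP. Hspa4 (ENSMUSG00000020361, chromosome 11, 53259814 to 53300457, minus strand) was at 578 CPM (574 to 583), 519.7 CPM (515 to 524) and 453 CPM (449.7 to 457). Hsph1 (ENSMUSG00000029657, chromosome 5, 149614287 to 149636376, minus strand) had 151 CPM (148 to 153), 99.1 CPM (97.2 to 101.0) and 83.2 CPM (81.7 to 84.7). Both were lower at each later time, and Hsph1 by more. The log2 ratios were -0.15 and -0.35 for Hspa4, and -0.61 and -0.86 for Hsph1, at 3 h and 6 h. By mean UMIs per cell the 3 h ratio of Hspa4 was 0.12, above the control.

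Dnaja1 and Dnajb1 encode J proteins of the cytosol. Dnaja1 (ENSMUSG00000028410, chromosome 4, 40722150 to 40737149, plus strand) was at 612 CPM (607 to 617), 467.5 CPM (463 to 472) and 361 CPM (357 to 364). Dnajb1 (ENSMUSG00000005483, chromosome 8, 83608193 to 83612653, plus strand) had 74.8 CPM (73.2 to 76.4), 39.2 CPM (37.97 to 40.4) and 30.4 CPM (29.5 to 31.3). By CPM the log2 ratio of Dnaja1 was -0.39 at 3 h and -0.37 from 3 h to 6 h, in nearly equal steps, but by mean UMIs per cell the steps were -0.12 and -0.54. That of Dnajb1 was -0.93 at 3 h and -0.37 from 3 h to 6 h by CPM, and -0.66 and -0.53 by mean UMIs per cell. At 6 h Dnajb1 was at 40.6% of the control, a log2 ratio of -1.30 (-1.35 to -1.25).

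Hsp90aa1 and Hsp90ab1 encode the stress-responsive and the constitutive Hsp90 of the cytosol. Hsp90ab1 (ENSMUSG00000023944, chromosome 17, 45567775 to 45573271, minus strand) was at 6628 CPM (6613 to 6643), 5944 CPM (5929 to 5958) and 5095 CPM (5084 to 5107). Hsp90aa1 (ENSMUSG00000021270, chromosome 12, 110690605 to 110702728, minus strand) had 5584 CPM (5570 to 5598), 5636 CPM (5622 to 5651) and 5093 CPM (5081 to 5105). Hsp90ab1 was lower at each later time, whereas Hsp90aa1 was lower at 6 h only. The log2 ratios of Hsp90ab1 were -0.16 and -0.38, and those of Hsp90aa1 0.01 and -0.13, at 3 h and 6 h. The 3 h ratios depend on scaling, since by mean UMIs per cell they were 0.11 for Hsp90ab1 and 0.28 for Hsp90aa1, and with TMM factors -0.27 and -0.10. The ratio of Hsp90aa1 to Hsp90ab1 UMIs, which no scaling of the library changes, was 0.842 (0.840 to 0.845), 0.948 (0.945 to 0.952) and 0.999 (0.996 to 1.003). Hsp90aa1 UMIs were fewer than Hsp90ab1 UMIs in the control and as many at 6 h, within counting error.

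Hspd1 and Hspe1 encode the chaperonin ring and its lid, and they share the promoter stretch with the chain printed above. Hspd1 (ENSMUSG00000025980, chromosome 1, 55077835 to 55088243, minus strand) was at 1522 CPM (1515 to 1529), 1219 CPM (1213 to 1226) and 813 CPM (808 to 818). Hspe1 (ENSMUSG00000073676, chromosome 1, 55088132 to 55091307, plus strand) had 1791 CPM (1783 to 1799), 1720.5 CPM (1713 to 1728) and 1652 CPM (1646 to 1659). The 2 transcripts differed in size of change. The log2 ratio of Hspd1 was -0.32 at 3 h and -0.90 at 6 h, and that of Hspe1 -0.06 and -0.12. The ratio of Hspd1 to Hspe1 UMIs was 0.850 (0.844 to 0.855), 0.709 (0.704 to 0.714) and 0.492 (0.489 to 0.496). By mean UMIs per cell Hspe1 was above the control at 3 h, with a log2 ratio of 0.21, and near it at 6 h, with -0.01. Hspd1 and Hspe1 overlap at their 5′ ends in GENCODE, on opposite strands. Of the 60-base words in the last 500 bases, 46.03% of those of Hspe1 occurred in 3 other annotated genes, and none of those of Hspd1 did. The level of Hspe1 is therefore less certain than that of Hspd1.

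**Figure D2:**
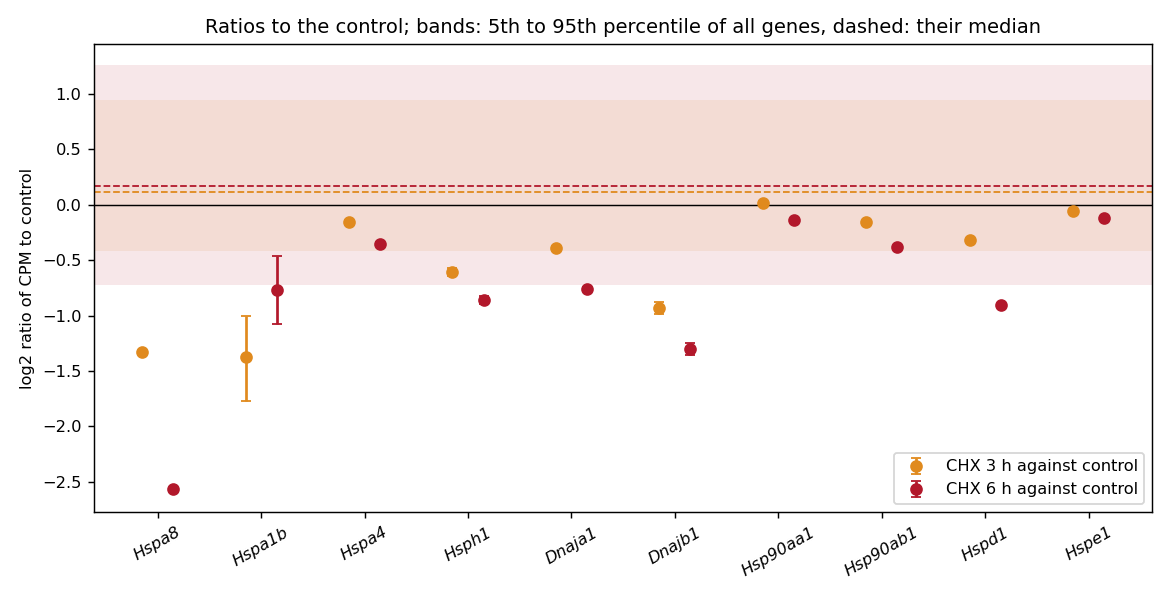
Log2 ratio of CPM to the control (y axis) for each chaperone gene (x axis) at 3 h (orange) and 6 h (red), with 95% counting intervals; shaded bands span the 5th to 95th percentile of all 7608 genes and dashed lines their medians. At 6 h Hspa8, Hsph1, Dnaja1, Dnajb1 and Hspd1 lie below the 5th percentile of -0.73, while Hspa4, Hsp90aa1, Hsp90ab1 and Hspe1 lie within the band. Hspa1b, under the floor of 10 CPM, is at -0.77 with an interval of -1.07 to -0.47 that takes in this percentile.

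Ordered by the 6 h ratio, the genes ran from Hspa8 (-2.57) through Dnajb1 (-1.30), Hspd1 (-0.90), Hsph1 (-0.86), Hspa1b (-0.77), Dnaja1 (-0.76), Hsp90ab1 (-0.38), Hspa4 (-0.35) and Hsp90aa1 (-0.13) to Hspe1 (-0.12). The interval of Hspa1b, -1.07 to -0.47, took in the values of Hspd1, Hsph1 and Dnaja1, so its place among them is not settled. Between other neighbours the counting intervals did not overlap, but no replicate shows whether this order would recur.

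The next question was whether the lower sums came from some cells or from most. Each cell was thinned to 15000 UMIs, which left out no cell. The Hspa8 median was 42 UMIs (quartiles 35 and 50), 17 UMIs (12 and 21) and 7 UMIs (5 and 9). The 5th percentile of control cells was 24 UMIs, and 84.6% of 3 h cells (82.8 to 86.3) and 99.9% of 6 h cells (99.7 to 99.98) lay below it. The distributions of the control and the 6 h cells thus barely overlapped.

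For other genes a smaller share of cells lay below the control 5th percentile, a share that also depends on the size of the shift. For Hsph1, Dnajb1 and Hspa1b that percentile was 0 UMIs, so no cell could lie below it. Below the control median lay 94.8% of 6 h cells for Hspd1, 93.3% for Hsp90ab1 and 87.2% for Dnaja1. The shares of control cells below it were 44.4%, 48.9% and 45.7%. For Hspe1 the share was 56.4% of 6 h cells and 46.1% of control cells. The Hspd1 median was 22, 18 and 12 UMIs, and 45.3% of 6 h cells (43.3 to 47.2) lay below the 5th percentile of control cells, at 12 UMIs. For Hsp90ab1 the medians were 100, 89 and 77 UMIs, and 37.7% of 6 h cells (35.8 to 39.6) lay below the control 5th percentile of 73 UMIs. For Hspe1 the medians were 26, 25 and 24 UMIs, and 7.56% of 6 h cells (6.56 to 8.65) lay below the control 5th percentile, beside 3.66% of the control cells themselves. Dnaja1 had medians of 9, 7 and 5 UMIs, and Hspa4 of 8, 7 and 6 UMIs. The excess squared coefficient of variation, that is the variance beyond counting noise over the squared mean, was 0.052, 0.104 and 0.088 for Hspa8. For Hspd1 it was 0.053, 0.053 and 0.090, and for Hsp90ab1 0.017, 0.016 and 0.023, the lowest of the 10 genes in each library where Hspa1b, with too few UMIs to give a value, is set aside.

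For the 2 sparser genes the share of thinned cells with a UMI was counted. For Dnajb1 it was 65.9% (63.9 to 67.9), 41.3% (39.02 to 43.7) and 35.9% (34.04 to 37.8). For Hsph1 it was 86.1% (84.5 to 87.5), 74.9% (72.8 to 76.9) and 70.5% (68.7 to 72.3). Without thinning these shares were 93.05%, 82.3% and 73.1% for Dnajb1, and 97.7%, 96.7% and 95.8% for Hsph1. A Hspa1b UMI was seen in 3.02%, 0.978% and 1.72% of thinned cells, a level at which no change is read. Free RNA held Dnajb1 at 70.9, 35.7 and 33.2 CPM, Hsph1 at 121, 86.5 and 63.8 CPM and Hspa8 at 2623, 1056 and 414 CPM. It moved the same way as the cells, no cell type lacking these genes was present for comparison, and its part in the shares was not tested.

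**Figure D3:**
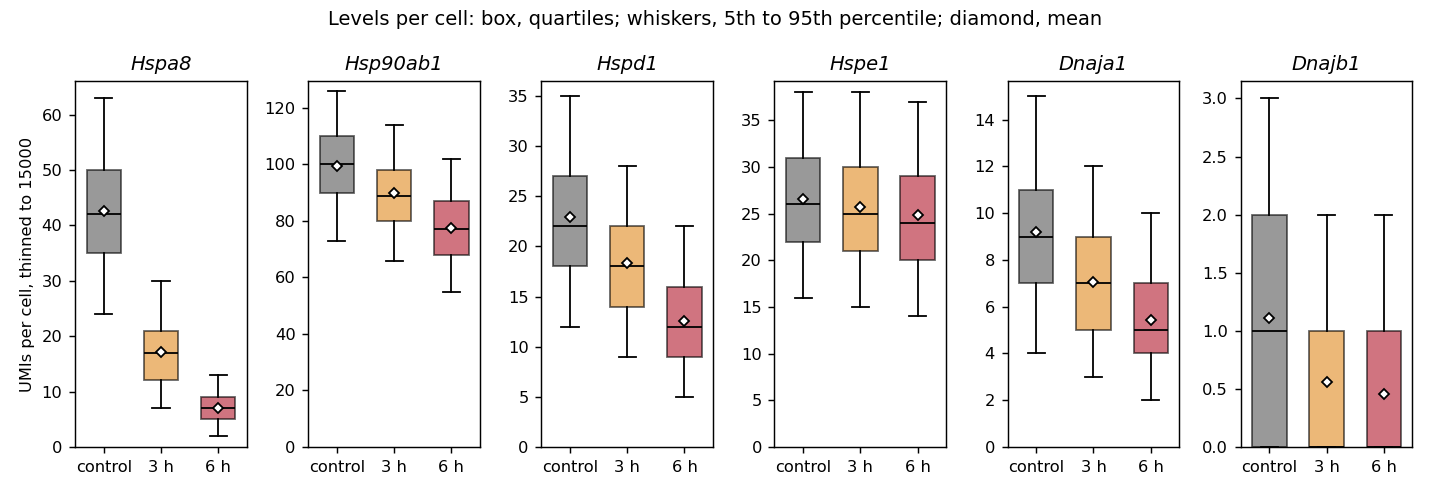
UMIs per cell after thinning to 15000 (y axis, from 0, a separate scale for each gene) for 6 chaperone genes in control, 3 h and 6 h cells (x axis); boxes are quartiles, whiskers the 5th and 95th percentiles and diamonds means. The 6 h box of Hspa8 (5 to 9 UMIs) lies below the control whisker end at 24 UMIs, while the 3 boxes of Hspe1 overlap almost fully.

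Whether the chaperones varied together from cell to cell was described with Pearson correlations of log-transformed thinned counts, within each library and with no test, since cells of a library share its free RNA and preparation. Over pairs of the genes averaging at least 0.5 UMIs per thinned cell the median r was 0.075 in 2187 control cells (36 pairs), 0.062 in 1739 cells at 3 h (36 pairs) and 0.041 in 2554 cells at 6 h (28 pairs). Over all 45 pairs, which include the sparse Hspa1b, it was 0.046, 0.040 and 0.005. The highest control pair was Hspa4 with Hspd1, with r = 0.358, and 0.257 and 0.127 at 3 h and 6 h. Hsp90aa1 with Hsp90ab1 had 0.250, 0.248 and 0.282. Hspd1 with Hspe1, the divergent pair, had 0.088, 0.188 and 0.274. Hspa8 had r between -0.041 and 0.141 with the other chaperones in the control, the highest with Hsp90aa1. Counting noise in thinned cells can lower such values, and its part in them was not tested.

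Among 3793 genes averaging at least 0.5 UMIs per thinned control cell, those most correlated with Hspa8 in control cells were Tubb4b (r = 0.312), Ube2c (0.286), Tuba1b (0.272), Calm2 (0.254) and Cks2 (0.252), beside a median of 0.009 and a 95th percentile of 0.076 over all of them. The control values of Hspa8 with Hsp90aa1 (0.141), Dnaja1 (0.137), Hspd1 (0.110), Dnajb1 (0.109) and Hsp90ab1 (0.103) lay above that 95th percentile. Those with Hspa4 (0.075), Hsph1 (0.075), Hspa1b (0.050) and Hspe1 (-0.041) lay below it. The genes behind this percentile were not matched in level to the chaperones, and Hspa1b averages less than their floor of 0.5 UMIs. At 3 h the values with Hspd1 (0.162), Dnaja1 (0.112) and Hsp90ab1 (0.094) lay above the 95th percentile of 0.077, and the others below. At 6 h none did, the highest being 0.033 with Dnaja1 beside a 95th percentile of 0.056. Ube2c and Cks2 are known for high levels in mitosis, and Tubb4b and Tuba1b encode tubulins. The genes most correlated with Hsph1 in control cells were L1td1 (0.248), Hnrnpu (0.239), Ncl (0.234), Lmnb1 (0.223) and Hnrnpa3 (0.214). Ube2c was picked by its correlation with Hspa8 in these control cells. A higher Hspa8 level there with more Ube2c thus follows from the choice. In control cells with 0 to 2 Ube2c UMIs the mean Hspa8 level was 38.0 UMIs, and in those with 8 or more it was 46.9 UMIs. At 3 h these means were 15.2 and 19.06 UMIs, and at 6 h 6.81 and 7.75 UMIs. The share of cells with 8 or more Ube2c UMIs was 33.8%, 26.3% and 21.7%. Within the cells of low Ube2c Hspa8 had log2 ratios of -1.32 and -2.48, and within those of high Ube2c -1.30 and -2.60, beside -1.33 and -2.57 over all cells. Within cells of 3 to 4% mitochondrial UMIs it was -1.41 and -2.69. These groupings were chosen after the data had been seen, and a part of mitosis in the ratios was not tested.

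**Figure D4:**
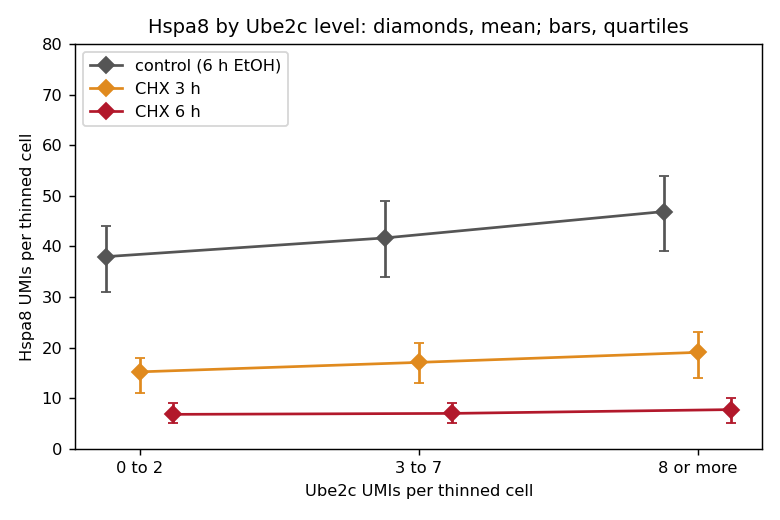
Hspa8 UMIs per thinned cell (y axis, from 0) in cells grouped by Ube2c UMIs (x axis: 0 to 2, 3 to 7, 8 or more) for the control (grey), 3 h (orange) and 6 h (red) libraries; diamonds are means and bars quartiles of cells. The 3 libraries stay apart at every Ube2c level, with means of 38.0, 15.2 and 6.81 UMIs in the lowest group.

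The genes whose pair of ratios was nearest to that of Hspa8, among 5569 genes averaging 20 CPM or more and by Euclidean distance over the 3 h and 6 h log2 ratios of these 3 libraries, were Tcf15 (distance 0.043), Fos (0.216), Prr13 (0.352), Mat2a (0.422) and Trib3 (0.475). Tcf15, a transcription factor gene, was at 231, 93.9 and 39.7 CPM. Few genes lay near Hspa8, whereas those nearest to Hsp90ab1 were closer by far: Cisd3 (0.004), Trrap (0.005), Akap12 (0.008), Kif22 (0.011) and Sfswap (0.012).

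Other chaperone families were read from lists written from textbook knowledge with earlier results of these data known. Of 34 co-chaperones of Hsp70 and Hsp90, 31 passed the floor and 0 were past 2-fold at either time, with medians of 0.04 at 3 h and 0.03 at 6 h and 15 genes under the control at 6 h. The members with the largest 6 h ratios were Ahsa1, which activates the Hsp90 ATPase, with 180, 141 and 108 CPM (log2 ratio -0.74 at 6 h), and Ttc4, with 49.4, 67.5 and 74.98 CPM (0.60). Of 16 other cytosolic J proteins, 10 passed, with medians of 0.07 and 0.15. Dnajc5, the cysteine string protein of secretory vesicles, was past 2-fold above the control at 6 h, at 32.7, 62.4 and 81.1 CPM (1.31), and 0 were past 2-fold below. Of 8 other Hsp70 family genes, 2 passed, and Hspa14, a ribosome-associated relative, had 174, 211 and 279.6 CPM (0.68 at 6 h).

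Of 4 genes listed under heat shock factors, 3 passed the floor, with medians of 0.09 at 3 h and -0.05 at 6 h and 0 past 2-fold. Hsf1 had 23.9, 21.9 and 20.5 CPM, with a 6 h log2 ratio of -0.22, and Hsbp1, which binds it, had 242, 259 and 284 CPM (0.23). Of 9 small heat shock protein genes, 3 passed, and Hspb1 had 1275.5, 1143 and 1061 CPM (-0.27). The 16 genes listed under the TRiC chaperonin and prefoldin, which act in the folding of actin and tubulin, all passed. Their medians were -0.01 at 3 h and 0.03 at 6 h, with 0 past 2-fold. Their largest 6 h ratios were those of Cct2 (-0.42) and Pdcl (-0.38), the latter not a subunit of either complex. The 14 other mitochondrial chaperones and proteases had medians of 0.00 and 0.12 and 0 past 2-fold, with Htra2 at 0.91 and Afg3l2 at -0.90 at 6 h.

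Endoplasmic reticulum chaperones had the lowest medians of the other lists. Of 18 genes 16 passed, 15 were under the control level for 3 h and 13 for 6 h, and the medians were -0.37 and -0.55. Hspa5, the Hsp70 of that compartment, had 391, 247 and 203 CPM, with a 6 h log2 ratio of -0.95. Hsp90b1, its Hsp90, had 583, 404 and 334 CPM (-0.81). Herpud1, named after its values were seen, was past 2-fold below at both times (-1.68 and -1.23). Other stress-induced genes had medians of -0.14 and -0.25 over 11 of 16 genes with 0 past 2-fold. In that list the autophagy receptor Sqstm1 had 29.1, 19.7 and 15.01 CPM (-0.95 at 6 h) and heme oxygenase Hmox1 64.3, 96.5 and 115 CPM (0.84). No gene above the floor in these other chaperone and stress lists was as low as Hspa8 at 6 h.

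**Figure D5:**
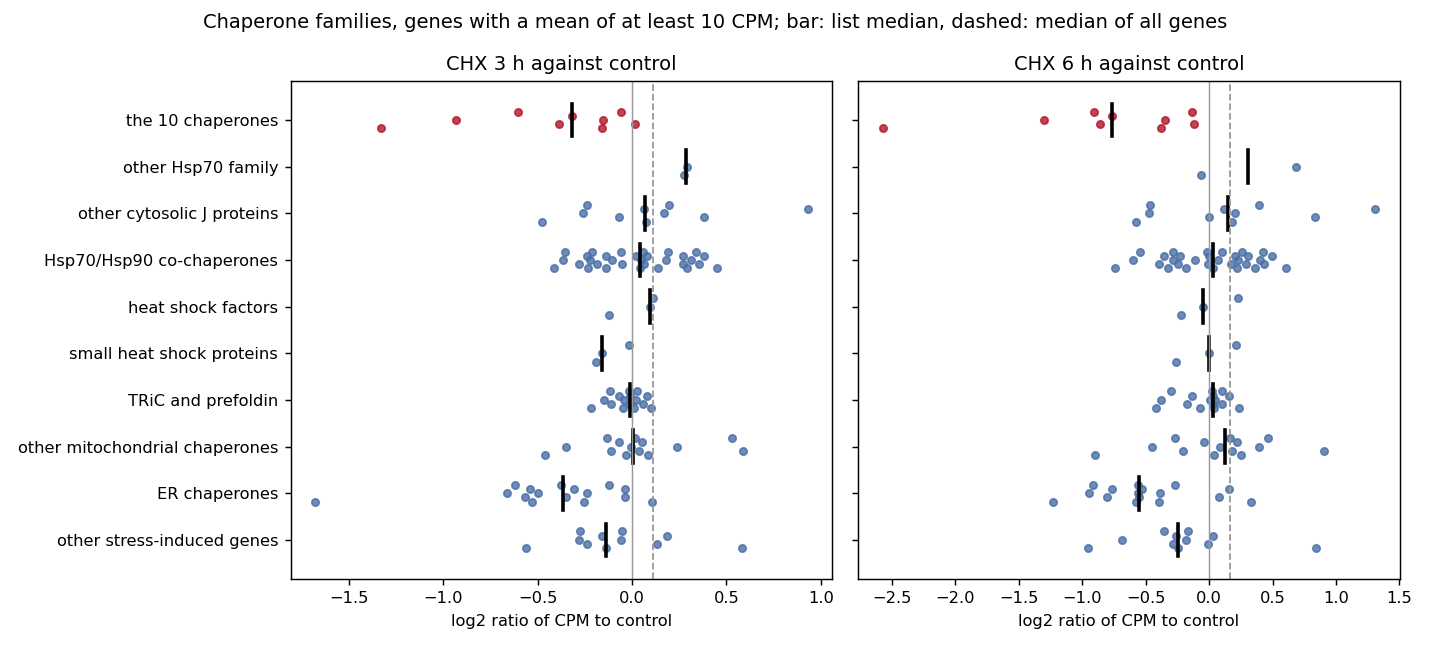
Log2 ratio of CPM to the control (x axis) at 3 h (left) and 6 h (right) for genes averaging 10 CPM or more in each chaperone list (rows); each point is a gene, black bars are list medians, the dashed line is the median of all genes, and the x scales differ. The 10 chaperones (red, 9 above the floor) and the endoplasmic reticulum list have the lowest medians at 6 h, -0.76 and -0.55.

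The limit of 15000 UMIs for a cell was looked at on either side. Barcodes with 10000 to 15000 UMIs, just outside it, held Hspa8 at 2861, 1113 and 480.3 CPM (46, 53 and 50 barcodes). Those with 15000 to 20000 UMIs, just inside, held 2953, 1139 and 458.5 CPM (43, 53 and 69 barcodes). The 3 levels of Hspa8 were thus alike on both sides. Hsp90ab1 had 5019, 5768 and 4596 CPM outside and 5865, 6180 and 5090 CPM inside, so its order between the control and 3 h differed from that of all cells in both ranges. Hspa4 had 534, 579 and 599.6 CPM outside and 522, 562 and 565 CPM inside, the reverse of its order in all cells, although on each side the interval of the control overlapped those of 3 h and 6 h. Hspa8, Hspd1 and Dnaja1 had the order of all cells on both sides, and each other gene departed from it on at least 1 side. Where libraries changed places their counting intervals overlapped, except for Hsp90ab1 outside the limit. There the control interval was 4837 to 5207 CPM and that of 3 h 5586 to 5955 CPM.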

How the data were processed

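The authors deposited raw UMI counts per gene and barcode, 1 matrix for each library, written by Cell Ranger 4.0.0 against mm10 per the file headers and the submitters' processing notes. The annotation and the counting of shared reads are not given in the sources used here. The matrices hold 32285 genes and all 6794880 possible barcodes, without a selection of cells.

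Barcodes with at least 15000 UMIs and 1 to 20% mt- UMIs were kept, and doublets were not removed or called. Counts were summed per library and expressed as CPM. Log2 ratios used a prior of 0.5 counts. Intervals are exact Poisson (CPM), exact conditional binomial (ratios) and Clopper-Pearson (shares). With 1 library per group no test was made. Cells were thinned without replacement to 15000 UMIs. The calculations were tested on simulated data. The named genes were the 10 members, Hspa1a, list genes averaging 20 CPM or more with a 6 h log2 ratio of at least 1 either way (else the 2 largest), and the 5 nearest or most correlated genes. The list of embryonic stem cell markers had Tfcp2l1 at a 6 h log2 ratio of -1.06, and that of germ layers Tubb3 at -1.81. Members and lists were chosen with earlier results of these data known.

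Positions come from GENCODE M21 on GRCm38, the build that mm10 names, and promoters from RefSeq on GRCm38.p6. Alternatives were TMM and RLE factors (edgeR 4.0.16, R 4.3.3), mean UMIs per cell, other barcode limits, subtraction of 10% free RNA, thinned sums, a prior of 5 counts and other floors. Python 3.11.15, numpy 2.4.6 and scipy 1.17.1 were used.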

Additional observations from a re-analysis of the deposited data

Results flagged for a closer look

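Hsp90aa1 lay on opposite sides of the control at the 2 times, with a log2 ratio of 0.01 (0.01 to 0.02) at 3 h and -0.13 (-0.14 to -0.13) at 6 h, and its 6 h against 3 h value was -0.15. The position above the control at 3 h was held by CPM, but it was -0.10 with TMM factors. Hspa1a also lay on opposite sides, with -0.49 (-0.85 to -0.14) at 3 h and 0.54 (0.27 to 0.83) at 6 h, and 1.03 between 3 h and 6 h, from 167, 114 and 307 UMIs. Neither difference was tested, because each time had 1 library, and both times share the same control.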

How the results depend on the processing

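The count of chaperones at least 2-fold below the control was 2 at 6 h, but 4 with TMM factors, 4 with RLE factors and 3 in the mitochondrial and Ube2c groupings, while the share of all genes went from 2.41% to 3.67% and 3.73% with these factors and was 1.90 to 2.71% in the groupings. At 3 h it was 2, but 1 in cells of 15000 to 40000 UMIs (0.404% of all genes) and 3 with TMM factors (0.710%), RLE factors (0.723%) or 8 or more Ube2c UMIs (0.406%). The 6 h median of -0.77 was -0.92 with TMM factors, -0.93 with RLE factors and -0.55 in cells with 0 to 2 Ube2c UMIs. The 3 h median of -0.35 was -0.084 by mean UMIs per cell, -0.32 with at least 2000 UMIs, -0.32 with no mitochondrial limit, -0.32 in cells of 15000 to 40000 UMIs and -0.34 in those over 60000 UMIs. It was -0.47 with TMM factors, -0.47 with RLE factors, -0.41 in cells of 3 to 4% mitochondrial UMIs, -0.40 in cells with 0 to 2 Ube2c UMIs, -0.29 in those with 8 or more, -0.32 without Hspa8 and -0.32 without Hspa1b. The median from 3 h to 6 h, -0.24, was -0.40 by mean UMIs per cell, -0.26 over 60000 UMIs, -0.21 after thinning, -0.28 with TMM factors, -0.28 with RLE factors and -0.21 with 0 to 2 Ube2c UMIs. Of 420 single values in 14 settings, 9 changed sign. By mean UMIs per cell the 3 h ratios of Hspa4, Hsp90ab1 and Hspe1 were 0.12, 0.11 and 0.21. The 3 h ratio of Hsp90aa1 was -0.10 with TMM factors, -0.10 with RLE factors, -0.050 in cells of 3 to 4% mitochondrial UMIs and -0.025 in cells with 8 or more Ube2c UMIs. Hspa1b, with few UMIs, was 0.27 at 6 h with 0 to 2 Ube2c UMIs and -0.72 from 3 h to 6 h with 8 or more. Scalings move all genes together by their construction, while the cause of the other shifts was not tested. The mitochondrial and Ube2c groupings and the medians without a gene were chosen after seeing the data. Across the settings Hspa8 stayed between -1.45 and -1.06 at 3 h and between -2.73 and -2.46 at 6 h, and Dnajb1 between -1.46 and -1.11 at 6 h. No paired analysis was possible because each group had 1 library, and for the same reason none could be left out. Depth limits Hspa1b and Hspa1a, and shares of cells with a Dnajb1 or Hsph1 UMI.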

Other observations

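The control library held 62 barcodes with at least 15000 UMIs and under 1% mitochondrial UMIs, which were not counted as cells, against 1 at 3 h and 8 at 6 h. In these control barcodes Hspa8 had 2957 CPM (2915 to 2999), near the 2835 CPM of control cells. Hspe1 had 2231 CPM, above its 1791 CPM in cells. Hspa4 had 146 CPM (137 to 156) and Hsph1 46.4 CPM (41.3 to 52.0), both far below the 578 and 151 CPM of control cells. Hsp90ab1 had 3561 CPM (3515 to 3608) against 6628 CPM, and Hspd1 718 CPM against 1522 CPM. The chaperones therefore differed in whether these barcodes held them at the level of cells.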
